A study of Mus musculus with 4 samples.

Results

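The genes described here encode steps or regulators of glycolysis and were studied in mouse liver. They are the glucose transporter Slc2a1, the glucokinase regulatory protein Gckr, the phosphofructokinase step with Pfkl, Pfkfb1 and Pfkfb3, the lower-pathway enzymes Aldoc and Eno3, the liver pyruvate kinase Pklr and the lactate dehydrogenase Ldha. They were taken by gene symbol from a list of 9 glycolytic genes known either as SIRT6-controlled or as rate-setting in liver. Of these, 8 had a value here, out of 19938 genes with a value in the series, and the array level of Pfkfb1 was not analysed here.

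Liver was profiled on 4 Affymetrix Mouse Gene 1.0 ST arrays, which measure a gene with short probes spread along its transcript. The KO-labelled arrays held RNA of SIRT6Co/Co ;Alb-Cre mice, which carry a conditional Sirt6 allele and Cre recombinase under the albumin promoter, at 2 and at 8 months of age. The WT-labelled arrays held RNA of WT SIRT6 mice of the same ages, and the labels do not say whether these carried Cre. RNA was combined from 3 pairs of mice at each age, so each group was 1 pool and the spread between animals could not be measured. The albumin promoter is active in hepatocytes, and whether other cell types of the liver lost the gene was not measured here. In whole tissue, fewer cells of a type and less RNA per cell cannot be told apart.

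Glycolysis turns glucose into pyruvate, and its pace is set at the nearly irreversible steps: glucose phosphorylation, phosphofructokinase and pyruvate kinase. In hepatocytes it runs mainly after meals, when it supplies pyruvate for fatty acid synthesis, and insulin, glucagon and glucose itself adjust the control steps. The deacetylase SIRT6 sits on chromatin, uses NAD, and is known for restraining glycolytic genes that the hypoxia-inducible factor HIF1 activates.

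All levels are log2 values that the authors made with RMA, and all differences are KO minus WT on that log2 scale unless age is named. The genotype difference was tested with an additive limma model of genotype and age over the 4 arrays. At an adjusted p of 0.05, it called 11.1% of 11963 genes, 6.81% as higher and 4.26% as lower in the KO-labelled arrays. These were 815 higher and 510 lower genes, and the split depended on scaling: repeated quantile normalization gave 897 and 864, cyclic loess 938 and 785, and median centring 901 and 392. The words rose and fell are used for genes past that threshold. Its p-values weigh a difference against its departure from additivity, with 1 residual degree of freedom per gene before moderation, and not against a spread between pools.

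For Sirt6 itself the KO-labelled values were 4.54 and 4.46 and the WT-labelled values 4.55 and 4.50, a limma adjusted p of 0.92. Its probe set did not separate the genotypes, and because the exons it covers are unknown here, it does not check the deletion. Every direction below therefore rests on the labels. Of 7 hepatocyte markers with a value, 0 were called by limma and 2 had an unadjusted p under 0.05, with Alb between 12.5 and 12.6 on the 4 arrays.

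Pklr and Pfkfb3, which act at the pyruvate kinase and phosphofructokinase steps, rose. The transporter Slc2a1 and the isozymes Aldoc and Eno3 of reversible steps fell, and Gckr, Pfkl and Ldha did not pass the test. That made 5 of 8 genes called, 2 up and 3 down, against 11.1% of all genes tested, and the same 5 had an unadjusted p under 0.05, against 25.0%. All 8 genes passed the filter on low values, Eno3 being nearest to it with a mean level of 3.98 against a filter value of 3.34. The median difference of the 8 genes was -0.15 at 2 months and 0.02 at 8 months, and that of all genes tested was 0.01 and 0.00.

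**Figure D1:**
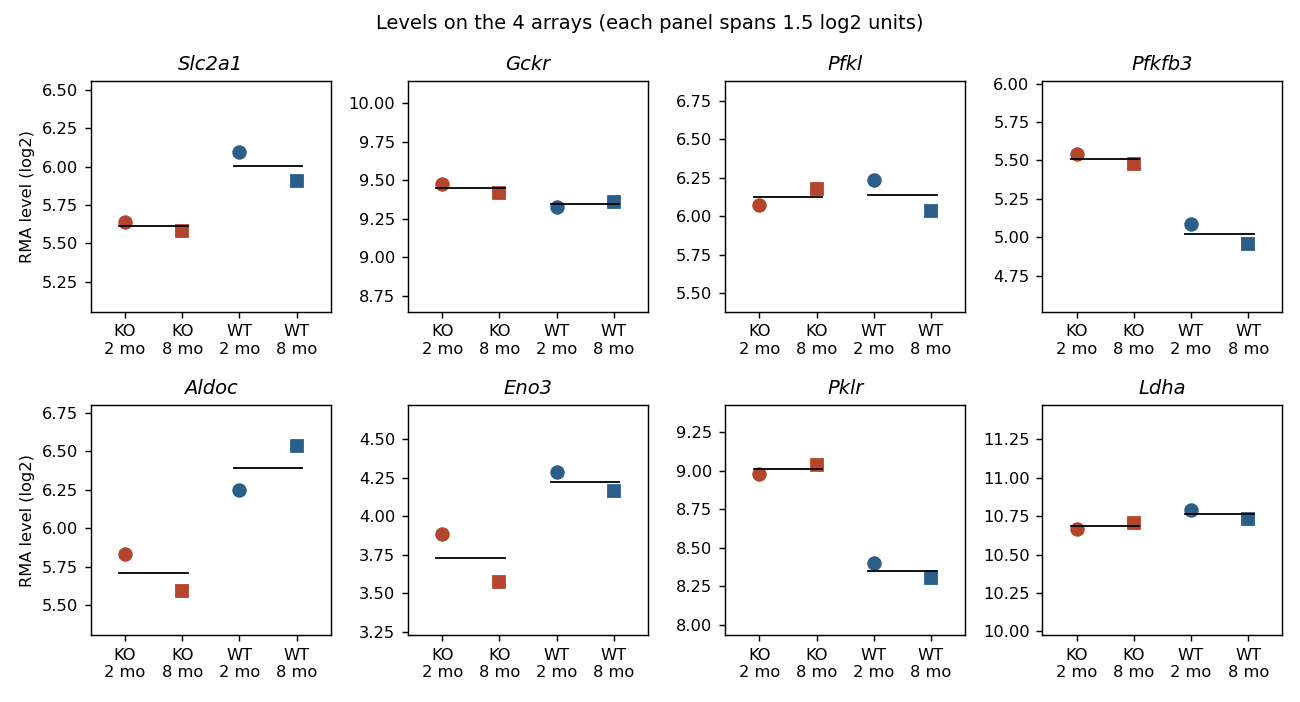
RMA level (log2) of each of the 8 glycolytic genes on the 4 arrays, with KO-labelled arrays in red and WT-labelled arrays in blue, circles for 2 months, squares for 8 months, and a line at the mean of each genotype. Each point is 1 array of pooled RNA. Pklr and Pfkfb3 lie higher and Slc2a1, Aldoc and Eno3 lower in both KO-labelled arrays, while the levels of Pfkl overlap.

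The promoter sequences of the genes were read from RefSeq (GRCm38.p6), because the hypoxia response and the carbohydrate response are the best known controls of this pathway. The windows hold the 250 bases before each annotated start, 16 windows for the 9 genes, and were searched on both strands. Among 32851 windows of all genes, 16.6% held ACGTG and 28.2% GCGTG, which are core letters of hypoxia response elements, 6.02% held CACGTG, the E-box, which contains ACGTG, and 8.46% held CACGGG, a part of the carbohydrate response element of Pklr. Of the 16 windows, 4 held ACGTG, 8 GCGTG, 2 CACGTG and 2 CACGGG, and the arrangement of a CACGTG followed by another after 5 bases was in 0 of the 16 and 0 of the 32851. The 4 windows below hold such letters and are shown for genes that rose (Pklr, Pfkfb3), fell (Slc2a1) or did not pass (Ldha), each 5′ to 3′ along the gene with the searched letters in capitals.
Pklr, downstream start, chr3:89136373-89136622, plus strand: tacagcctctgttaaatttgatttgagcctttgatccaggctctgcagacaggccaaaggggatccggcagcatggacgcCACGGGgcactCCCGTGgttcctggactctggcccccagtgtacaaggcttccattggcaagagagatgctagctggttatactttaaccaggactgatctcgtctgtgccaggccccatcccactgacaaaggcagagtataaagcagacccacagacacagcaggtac
Pfkfb3, downstream start, chr2:11502091-11502340, minus strand: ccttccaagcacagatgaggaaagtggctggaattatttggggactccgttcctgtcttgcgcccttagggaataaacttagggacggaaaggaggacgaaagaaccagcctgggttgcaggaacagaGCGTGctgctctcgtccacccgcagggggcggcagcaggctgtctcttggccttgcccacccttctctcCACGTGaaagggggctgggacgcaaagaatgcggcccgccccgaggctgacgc
Slc2a1, chr4:119108495-119108744, plus strand: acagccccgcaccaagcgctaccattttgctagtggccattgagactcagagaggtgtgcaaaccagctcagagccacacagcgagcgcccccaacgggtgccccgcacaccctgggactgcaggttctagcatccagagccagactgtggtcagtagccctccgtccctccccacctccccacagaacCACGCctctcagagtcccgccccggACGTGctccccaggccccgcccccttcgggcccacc
Ldha, upstream start, chr7:46845554-46845803, plus strand: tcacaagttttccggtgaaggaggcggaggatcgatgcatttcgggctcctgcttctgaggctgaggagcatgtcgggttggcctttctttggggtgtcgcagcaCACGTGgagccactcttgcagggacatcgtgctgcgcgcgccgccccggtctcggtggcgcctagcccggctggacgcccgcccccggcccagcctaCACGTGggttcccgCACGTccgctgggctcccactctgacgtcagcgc

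In the Pklr window a CACGGG is followed by CCCGTG, which is CACGGG read on the opposite strand. They begin at positions -170 and -159 from the start. This pair at this spacing was searched after it had been seen and was in 1 of the 32851 windows, that of Pklr. The upstream Pklr window held none of the searched letters. ACGTG was found before Pfkfb3, which rose, before Slc2a1, which fell, and before Ldha, which did not pass. GCGTG was found before Pfkfb3, before Slc2a1, Aldoc and Eno3, which fell, before Pfkl and Ldha, which did not pass, and before Pfkfb1. CACGTG was found before Pfkfb3 and Ldha, and CACGGG before Pklr and Pfkfb3. The CACGGG of Pfkfb3 began at position -118 from its upstream start, in a window not printed above. Gckr held none of the letters. A match of letters is a description and not a bound site.

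Slc2a1 encodes the glucose transporter GLUT1, which most cells use and hepatocytes use little beside GLUT2. Its level was 5.64 and 5.58 in the KO-labelled arrays at 2 and 8 months, against 6.10 and 5.90 in the WT-labelled arrays. The genotypes did not overlap, and the WT-labelled array at 2 months was the highest. The difference was -0.46 at 2 months and -0.32 at 8 months, and in the limma fit Slc2a1 fell by 0.39 (SE 0.11, adjusted p 0.036). The call was lost without the filter (adjusted p 0.092), without the intensity trend (0.069) and with arrays centred on their medians (0.082), within a range of 0.0079 to 0.092 over 10 alternatives. Slc2a2, the GLUT2 of hepatocytes, read 10.65 and 10.72 in the KO-labelled arrays and 10.66 and 10.59 in the WT-labelled arrays and did not pass (limma adjusted p 0.71).

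Cell types other than hepatocytes carry much of the Slc2a1 of a liver, so their markers are given beside it. Of 11 endothelial markers tested, 1 rose, Cdh5, and 0 fell, and their summed linear level was 627 to 667 in the KO-labelled and 627 to 650 in the WT-labelled arrays. Of 12 markers of stellate cells and fibroblasts, 1 rose, Reln, and 5 fell (Acta2, Vim, Col1a1, Col1a2 and Col3a1), with a sum of 1204 to 1252 in the KO-labelled and 1274 to 1424 in the WT-labelled arrays. Dcn, the brightest of these 12 and the largest part of the sum, was at 0.09 and did not pass (limma adjusted p 0.5). Vim, an intermediate filament of mesenchymal cells, was highest in the WT-labelled array at 2 months, as was Slc2a1. Acta2, Col1a1, Col1a2 and Col3a1 shared this, while Lrat, Reln, Dcn, Pdgfrb and Lum were highest in the KO-labelled array at 2 months. Des and Tagln were highest in the WT-labelled array at 8 months. Of 11 Kupffer cell markers tested, 3 rose (Cd5l, Vsig4 and Timd4) and 1 fell (Lyz2). The sum over the 12 with a value was 559 to 643 in the KO-labelled and 468 to 601 in the WT-labelled arrays. The levels of Lyz2 overlapped between the genotypes. It was also the 1 gene of the series called for age, at -0.80 for 8 minus 2 months (limma adjusted p 0.039). The part of these cells in the difference of Slc2a1 was not tested.

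Gckr encodes the protein that holds glucokinase inactive in the hepatocyte nucleus while glucose is low. Its level at 2 and 8 months was 9.48 and 9.42 in the KO-labelled arrays, against 9.32 and 9.36 in the WT-labelled arrays. The KO-labelled arrays were the higher ones at both ages, by 0.15 and 0.06, but the mean difference of 0.11 did not pass (limma adjusted p 0.44). Its 95% interval ran from -0.06 to 0.27. A difference in either direction as large as that of Pklr lies outside it, but the interval holds no spread between pools. Among the hexokinases, Hk1 was at -0.02, Hk2 at -0.22 and Hk3 at 0.21, and none of these 3 passed (limma adjusted p of 0.36 to 0.92).

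Phosphofructokinase commits glucose to glycolysis, and fructose 2,6-bisphosphate, made and removed by the Pfkfb enzymes, is its strongest activator in liver. Pfkl, the liver subunit of phosphofructokinase, read 6.07 and 6.17 at 2 and 8 months in KO, against 6.24 and 6.04 in the WT-labelled arrays. It was the only one of the 8 genes whose genotypes overlapped and whose difference had opposite signs, -0.17 at 2 months and 0.14 at 8 months. The mean difference was -0.01 with a 95% interval of -0.25 to 0.23 (limma adjusted p 0.96), and with arrays centred on their medians it was 0.03.

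Pfkfb3 encodes an isoform of the bifunctional enzyme whose kinase activity far outweighs its phosphatase activity. Its level was 5.54 and 5.48 in the KO-labelled arrays at 2 and 8 months, against 5.09 and 4.95 in the WT-labelled arrays. The genotypes did not overlap, and the arrays of a genotype lay 0.07 (KO) and 0.13 (WT) apart. The difference was 0.46 at 2 months and 0.52 at 8 months, ratios of 1.37 and 1.44, and in the limma fit Pfkfb3 rose by 0.49 (SE 0.12, adjusted p 0.017). Without the filter the adjusted p was 0.051, within a range of 0.0056 to 0.051 over 10 alternatives.

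At the same step Pfkm, the phosphofructokinase subunit named for muscle, also rose. It read 6.21 and 6.23 in the KO-labelled arrays and 5.84 and 5.84 in the WT-labelled arrays, a difference of 0.38 (SE 0.10, limma adjusted p 0.033) that was lost without the filter (adjusted p 0.086) and without the trend (0.071). The platelet-type subunit Pfkp was at -0.11, the heart-type Pfkfb2 at 0.13, and neither passed (limma adjusted p 0.67 and 0.44), while Pfkfb4 did not reach the filter. Tigar, a phosphatase that lowers fructose 2,6-bisphosphate, was at 0.21 at 2 months and 0.47 at 8 months and did not pass (limma adjusted p 0.08). Thus 2 of the 6 genes tested at this step rose and 0 fell, against 6.81% and 4.26% of all genes, and without the filter neither of the 2 was called.

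**Figure D2:**
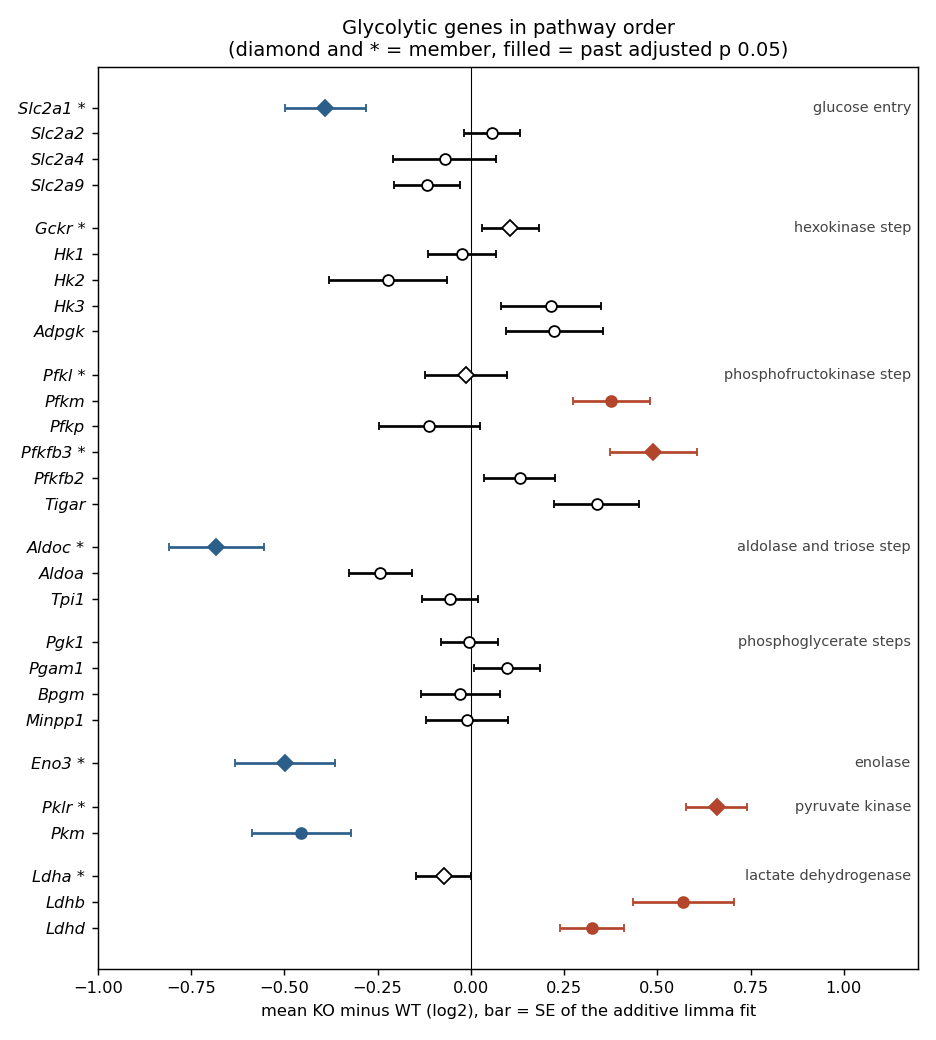
Mean KO minus WT difference (log2) of the glycolytic genes tested, in pathway order from glucose entry at the top to lactate dehydrogenase at the bottom, with bars for the SE of the additive limma fit. Diamonds with an asterisk are the 8 genes of the list, circles the other glycolytic genes, and filled marks passed an adjusted p of 0.05 (red higher, blue lower in the KO-labelled arrays). Pklr at 0.66 and Pkm at -0.46 point in opposite directions at the same step.

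Aldoc encodes aldolase C, an isozyme best known from brain, which splits fructose 1,6-bisphosphate. It read 5.83 and 5.59 in the KO-labelled arrays at 2 and 8 months, against 6.25 and 6.54 in the WT-labelled arrays. The genotypes did not overlap, and the gap was wider at 8 months, where the KO-labelled array was the lowest and the WT-labelled array the highest. The difference was -0.42 at 2 months and -0.95 at 8 months, a WT level 1.34 and 1.93 times that of KO. In the limma fit Aldoc fell by 0.68 (SE 0.13, adjusted p 0.0037), and the call held under the 10 alternatives tried. The difference became more negative by 0.53 between the ages, which has no test with 1 array per group.

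Neurons and glia carry aldolase C, so their markers are given beside it. Of 8 such markers 7 had a value and 3 passed the filter, and limma called 0, with 1 at an unadjusted p under 0.05 and a summed linear level of 130 to 143 in the KO-labelled and 117 to 121 in the WT-labelled arrays. The synaptic protein Syt1, the brightest of them and the largest part of the sum, read 6.37 and 6.48 in KO and 6.10 and 6.09 in WT. The mean difference was 0.33 for Syt1, and of the other markers tested Mbp was at 0.02 and Mag at -0.20. The part of neural RNA in the difference of Aldoc was not tested. The sister isozyme Aldoa, the aldolase of muscle and most other tissues, was at -0.23 at 2 months and -0.26 at 8 months and did not pass (limma adjusted p 0.09).

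Eno3 encodes the enolase isozyme of striated muscle, which makes phosphoenolpyruvate. It read 3.88 and 3.57 in the KO-labelled arrays at 2 and 8 months, against 4.29 and 4.16 in the WT-labelled arrays. The genotypes did not overlap, and within each genotype the array at 8 months was the lower one. The difference was -0.40 at 2 months and -0.59 at 8 months, and in the limma fit Eno3 fell by 0.50 (SE 0.13, adjusted p 0.031). Without the filter the adjusted p was 0.091, within a range of 0.016 to 0.091 over 9 alternatives, and under the stricter filter the gene was not tested. The neuronal enolase Eno2 did not reach the filter.

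Muscle carried over at dissection would bring Eno3 with it, so muscle markers are given beside it. All 10 had a value and 5 passed the filter, of which limma called 0, with 1 at an unadjusted p under 0.05. Their summed linear level was lower in the KO-labelled arrays, at 108 to 115, than in the WT-labelled arrays, at 121 to 124, and their median difference was -0.21. Ckm, the creatine kinase of muscle, read 3.89 and 3.72 in the KO-labelled and 3.87 and 4.16 in the WT-labelled arrays at 2 and 8 months. The 5 markers tested were at -0.31 (Tnnc2), -0.28 (Mb), -0.21 (Ckm), -0.02 (Tnnt3) and 0.13 (Acta1). The part of muscle RNA in the difference of Eno3 was not tested.

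Pklr encodes the pyruvate kinase of liver and red cells, which makes pyruvate and ATP in the last step of glycolysis. Its level was 8.98 and 9.04 in the KO-labelled arrays at 2 and 8 months, against 8.40 and 8.30 in the WT-labelled arrays. The KO-labelled arrays lay above the WT-labelled ones by far more than the arrays of a genotype differed, which was 0.06 (KO) and 0.10 (WT). The difference was 0.58 at 2 months. At 8 months it was 0.73, a ratio of 1.66. In the limma fit Pklr rose by 0.66 (SE 0.08, adjusted p 0.00017), the smallest adjusted p of the 8 genes, and 3.06% of all genes tested had a larger difference in either direction. The call held under the 10 alternatives tried, with differences of 0.62 to 0.70.

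Pkm, the pyruvate kinase gene of most other tissues, fell. It read 5.79 and 5.76 in the KO-labelled arrays and 6.54 and 5.92 in the WT-labelled arrays at 2 and 8 months, so that the WT-labelled array at 2 months stood above the other three. The mean difference was -0.46 (SE 0.13, limma adjusted p 0.046), and 6 of 10 alternatives lost the call, with adjusted p-values of 0.009 to 0.15. The same array was the highest for Vim, which read 6.50 and 6.20 in the KO-labelled and 7.72 and 6.71 in the WT-labelled arrays. It was also the highest for Acta2, Col1a1, Col1a2 and Col3a1. Of the same stellate cell and fibroblast list, Lrat, Reln, Dcn, Pdgfrb and Lum were highest in the KO-labelled array at 2 months. Des and Tagln were highest in the WT-labelled array at 8 months. The part of mesenchymal cells in the difference of Pkm was not tested.

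Red cells and their precursors also make Pklr, from the upstream start, and the array value does not tell the starts apart. Of 6 red cell markers with a value, 4 passed the filter and 2 rose, the heme synthesis enzyme Alas2 by 0.64 and the carbonic anhydrase Car1 by 0.73 (limma adjusted p 0.0013 and 0.00011). The membrane anion exchanger Slc4a1 was at 0.22 and the erythroid transcription factor Klf1 at -0.41, and neither passed. The summed linear level of the 6 markers was 319 to 352 in the KO-labelled arrays and 211 to 231 in the WT-labelled arrays. Car1 and Alas2 were the brightest of them and made up most of this sum, while Epb42 and Rhag did not reach the filter. The part of red cells and their precursors in the difference of Pklr was not tested.

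Ldha encodes the lactate dehydrogenase subunit that favours lactate formation and is among the best known HIF1 targets. At 2 and 8 months KO-labelled arrays gave 10.67 and 10.71 for Ldha, and WT-labelled arrays 10.79 and 10.73. The genotypes were separated only narrowly, by -0.12 at 2 months and -0.02 at 8 months. The mean difference of -0.07 did not pass (limma adjusted p 0.61), and its 95% interval ran from -0.24 to 0.09. The window printed above shows that its upstream start holds the E-box CACGTG more than once.

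The other lactate dehydrogenases rose. Ldhb, the subunit that favours pyruvate formation, read 4.46 and 4.56 in the KO-labelled and 4.02 and 3.87 in the WT-labelled arrays, a difference of 0.57 (SE 0.13, limma adjusted p 0.017). Its 2 probe sets were both higher in KO at either age, by 0.32 and 0.53 and by 0.57 and 0.86. Ldhd, a mitochondrial enzyme for D-lactate, was at 0.32 and 0.33 at 2 and 8 months (mean 0.33, SE 0.09, limma adjusted p 0.029). Each lost its call in 2 alternatives, Ldhb without the filter (adjusted p 0.06) and with the brightest probe set alone (0.057), and Ldhd without the filter (0.085) and without the trend (0.11).

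**Figure D3:**
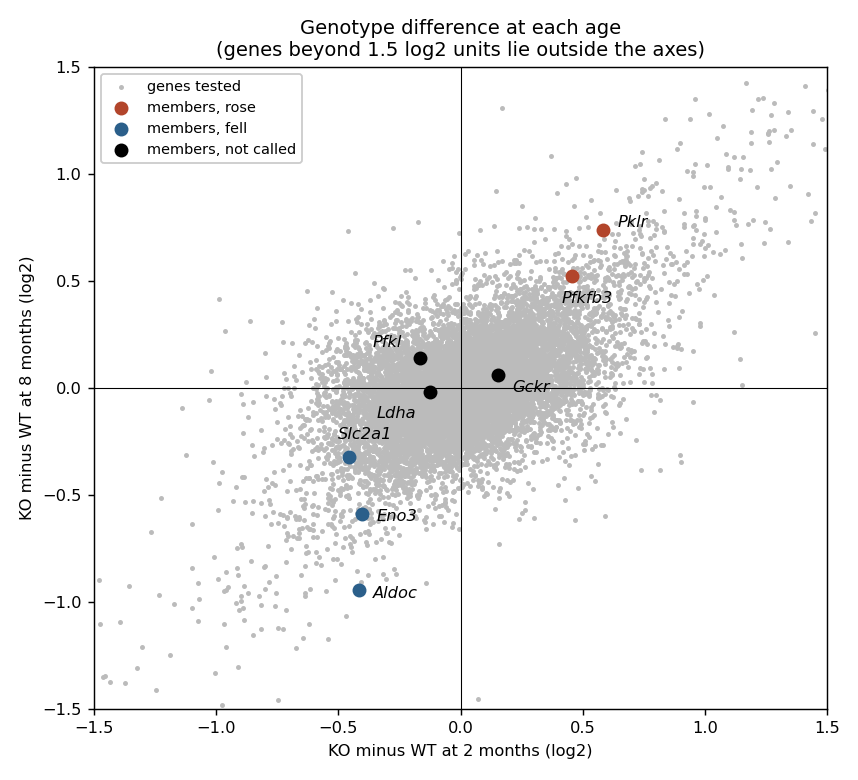
KO minus WT difference (log2) at 2 months on the horizontal axis and at 8 months on the vertical axis, with all genes tested in grey and the 8 glycolytic genes coloured by their limma call. Pklr and Pfkfb3 lie to the upper right, Slc2a1, Eno3 and Aldoc to the lower left, and Gckr, Pfkl and Ldha near the centre.

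Genotype differences at the 2 ages rest on different arrays. The sign was the same at both ages in 7 of the 8 genes, all but Pfkl, against 66.2% of all genes tested, and the same 7 genes had no overlap between the genotypes, against 54.8%. At 2 months 0 of the 8 genes were at least 1.5-fold apart, where 6.37% of all genes were, 3.98% higher and 2.39% lower, and Pklr lay just under that fold. At 8 months 3 of the 8 were, Pklr higher and Aldoc and Eno3 lower in the KO-labelled array, where 4.34% of all genes were, 2.41% higher and 1.93% lower. Eno3 was only just past that fold, with a WT level 1.51 times that of KO. A difference at a single age has no test, since each group was 1 array.

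The mean age differences of the 8 genes did not pass the test. Limma called 0 of 8 for 8 minus 2 months, with 0 at an unadjusted p under 0.05, where 0.00836% of all genes were called and 3.6% had such a p. The mean age difference was largest for Eno3, at -0.22 with a 95% interval of -0.51 to 0.07. For Aldoc a mean of 0.02 averaged -0.24 in KO and 0.29 in WT. Within the KO-labelled arrays the difference between the ages ran from -0.31 for Eno3 to 0.10 for Pfkl, and within the WT-labelled arrays from -0.20 for Pfkl to 0.29 for Aldoc. None of the 8 was 1.5-fold apart between the ages in either genotype, as were 0.652% of all genes in KO (0.376% higher and 0.276% lower at 8 months) and 0.652% in WT (0.209% higher and 0.443% lower).

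**Figure D4:**
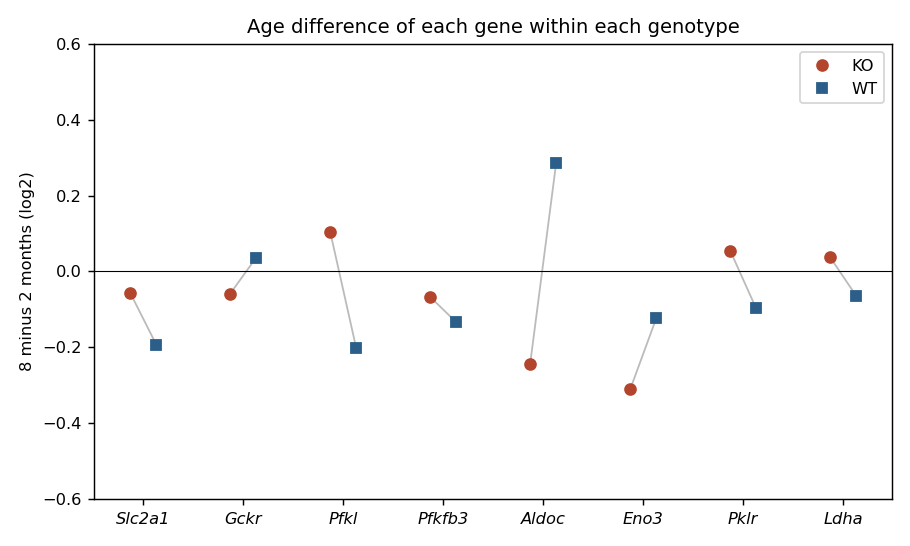
Difference between 8 and 2 months (log2) of each of the 8 glycolytic genes, in the KO-labelled arrays (red circles) and the WT-labelled arrays (blue squares), each from 1 array per age. Aldoc has the widest gap between the genotypes, at -0.24 in KO and 0.29 in WT.

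Beyond the 9 listed genes, most of the pathway did not pass the test. Of 30 other genes of glycolysis and glucose entry, 25 had a value and 20 passed the filter, of which 3 rose (Pfkm, Ldhb and Ldhd) and 1 fell (Pkm), against 6.81% and 4.26% of all genes. Their median difference was -0.01, where that of all genes tested was 0.00. The count of 4 fell to 0 without the filter, to 1 without the trend and to 2 with the brightest probe set of each gene. The reversible middle steps were among the genes that did not pass, with Tpi1 at -0.06, Pgk1 at 0.00 and Pgam1 at 0.10.

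Around pyruvate, Pdha1 and Me1 rose and Pcx, Slc16a7 and Pdp2 fell. Of 18 genes tested for pyruvate and lactate fate, 2 rose and 3 fell, against 6.81% and 4.26% of all genes, with a median difference of 0.01. Pdha1, a subunit of the pyruvate dehydrogenase that turns pyruvate into acetyl-CoA, rose by 0.44 (SE 0.08, limma adjusted p 0.0032). Me1, the malic enzyme that makes NADPH for fatty acid synthesis, rose by 0.57 (adjusted p 0.00038). Pcx, the pyruvate carboxylase that opens gluconeogenesis, fell by 0.38 (adjusted p 0.0061), the monocarboxylate carrier Slc16a7 by 0.47 (0.0024) and the pyruvate dehydrogenase phosphatase Pdp2 by 0.48 (0.023), all by limma. Pcx and Pdp2 each lost the call in 2 of 10 alternatives. The lactate carrier Slc16a1 was at 0.01 and the kinase Pdk4 at 0.07, and neither passed.

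Of 21 genes tested for fructose entry, the pentose phosphate branch and glycogen, 4 rose and 4 fell, against 6.81% and 4.26% of all genes, with a median difference of 0.16 beside 0.00 for all genes. The highest was Ppp1r3g, a glycogen-targeting subunit of protein phosphatase 1. It read 7.74 and 7.65 in the KO-labelled and 6.30 and 6.35 in the WT-labelled arrays, and rose by 1.37 (SE 0.09, limma adjusted p 8.3e-07). Transketolase (Tkt) rose by 0.56, the triokinase Tkfc by 0.47 and the glycogen branching enzyme Gbe1 by 0.43. The phosphorylase kinase subunit Phka2 fell by 0.64, the glycogen-targeting subunit Ppp1r3c by 0.55, the fructose transporter Slc2a5 by 0.52 and the liver glycogen synthase Gys2 by 0.34. Limma adjusted p-values of these last 7 genes ran from 0.0011 to 0.026, and Gys2 lost the call in 3 and Slc2a5 in 1 of 10 alternatives.

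Of 19 transcriptional regulators tested, 3 rose and 4 fell, against 6.81% and 4.26% of all genes, with a median difference of 0.00. Myc, which activates glycolytic genes in many cells, rose most, reading 5.93 and 6.01 in the KO-labelled and 5.04 and 4.90 in the WT-labelled arrays (mean difference 1.00, SE 0.12, limma adjusted p 0.00011). Srebf1, the lipogenic factor that insulin induces, rose by 0.45, and Bhlhe40, a repressor of the clock and hypoxia responses, by 0.48. Klf10, Ppara, Foxa2 and Foxo1 fell by 0.88, 0.49, 0.49 and 0.41, with limma adjusted p-values of 0.00018 to 0.024, and of 10 alternatives Foxo1 lost the call in 3 and Foxa2 in 1. Hif1a itself was at 0.27 at 2 months and 0.09 at 8 months and did not pass (limma adjusted p 0.26), nor did the glucose-responsive factor Mlxipl, which acts on the Pklr element printed above, at -0.19 (adjusted p 0.19).

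The genes whose profiles lay nearest to the called genes were found by the root mean square difference of centred levels over the 4 arrays. For Pklr, whose own profile has a root mean square of 0.33, they were the fatty acid elongase Elovl6 at 0.031, Arhgap44 at 0.034 and the red cell gene Alas2 at 0.035. For Pfkfb3 they were Acly, the enzyme that makes cytosolic acetyl-CoA, at 0.0025, Mical2 and Rab28. Acly read 8.86 and 8.79 in the KO-labelled and 8.40 and 8.27 in the WT-labelled arrays. For Aldoc they were Ube2l6, B3galt1 and the bile acid enzyme Baat, at 0.043 to 0.064, for Eno3 Cadm4, Ctif and Tmem37, at 0.013 to 0.031, and for Slc2a1 Pcsk4, Snai2 and Mfge8, at 0.0042 to 0.014. This likeness over 4 arrays is a description and has no test.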

How the data were processed

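Total RNA of mouse liver was measured on 4 arrays, 1 for each genotype and age. The authors deposited log2 values; the submitters' processing notes name RMA and version 1.0v of Affymetrix Expression Console. RMA corrects background, quantile normalizes arrays and summarises probes, which compresses differences of dim probe sets. No source used here gives the genome build or which arrays were normalized together. Arrays have no read depth, and their number limits the precision.

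Of 35556 probe sets, 21789 with 1 symbol in the platform table were used; 1621 had several symbols and 12146 were not listed. Symbols were looked up by identifier in RefSeq (GRCm38.p6), which changed 0, and probe sets were averaged per gene, giving 19938 genes. Genes with a mean above the 40th percentile (3.34) were tested with lmFit and eBayes (intensity trend) of limma 3.58.1 in R 4.3.3, with Benjamini-Hochberg adjustment over 11963 genes. Linear levels of marker lists are 2 to the power of the log2 value, summed. The fit was tested on simulated data, where the median share of false calls was above the nominal one.

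Named genes are Sirt6, the 9 listed genes, every called gene of the pathway lists, close isozymes, called marker genes and the 3 nearest profiles of each called gene, leaving out predicted genes and small RNAs. Other genes are given as examples of list members that did not pass and were chosen after their values were seen. The genes and lists were chosen with earlier results of these data known. Alternatives were other filters, variance priors, scalings, probe set rules and models. Of adipocyte markers 1 of 3 tested fell (Cidec), and of cholangiocyte markers 0 of 3 were called, with 0 at an unadjusted p under 0.05.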

Additional observations from a re-analysis of the deposited data

Results flagged for a closer look

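Some of the 8 genes had differences of opposite sign in the groups compared, and none of these contrasts could be tested with 1 array per group. Pfkl had a KO minus WT difference of -0.167 at the younger age and 0.14 at the older, and its 8 minus 2 months difference was 0.104 in KO and -0.202 in WT. For Aldoc, 8 minus 2 months was -0.243 in KO and 0.287 in WT. The age differences of Gckr (-0.059 in KO, 0.037 in WT), Pklr (0.055 in KO, -0.098 in WT) and Ldha (0.037 in KO, -0.064 in WT) were smaller. The median size of an age difference over all genes tested was 0.11 in KO and 0.10 in WT.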

How the results depend on the processing

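The genotype calls of Pklr and Aldoc held under all 10 alternatives, and those of Pfkfb3, Eno3 and Slc2a1 did under 9 of 10, 8 of 9 and 7 of 10. No filter gave 752 genes called for genotype, 2 of the 8 genes described and 0 other glycolytic genes. No trend gave 846, with 1 other glycolytic gene and 3 genes of pyruvate and lactate fate, and the brightest probe set gave 2 other glycolytic genes. Genes called for age numbered 1 in the main fit, 14 under median centring, 3 under cyclic loess, 3 under repeated quantile normalization, 2 with the brightest probe set, and 0 with no filter, the 20th percentile filter, no trend, the robust prior or genotype left out. Under median centring Pfkl turned to 0.026 for genotype, and 1 of the 8 genes was 1.5-fold apart at 2 months. The age difference turned to 0.0101 for Gckr and to 0.0048 for Pklr under cyclic loess, and to 0.0138 and 0.0205 under repeated quantile normalization. Without the filter more genes are tested; the other causes were not tested. No scaling moved the median of all genes by over 0.1. No paired analysis by replicate number was run; the main fit already compares the genotypes within each age, and with age left out of the model 1445 genes and 5 of the 8 were called. Leaving out an array leaves no residual degree of freedom. Dim probe sets such as that of Eno3 limit what RMA can resolve.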
